A study of Mus musculus with 12 samples.

Results

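Collagen chains were examined in visceral white fat from mice of the FVB/N strain. The members were all genes whose symbol is Col, a number, the letter a and a number, which gave 44 of the 50559 genes counted, and 31 of the 44 had enough reads to be tested. There were 12 RNA-seq libraries, 3 in each of 4 groups. The wild-type groups carried the alphaMHC tTA driver alone, and the transgenic groups carried alphaMHC tTA together with alphaMHC TGFb, so every animal had the driver and the transgene was placed under a heart muscle promoter. Mice were 8 to 10 weeks old and received control chow (17% of kcal from fat, 3.1 kcal/g) or, in the high-fat groups, a diet with 60% of kcal from fat (5.21 kcal/g) given for 2 or 6 weeks. The labels do not say which duration a library had, nor that each library came from a mouse of its own, so p-values reflect the library-to-library spread, which may be technical. The comparisons address how diet and the cardiac transgene relate to the collagen transcripts of visceral fat.

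Collagens are the main structural proteins of the extracellular matrix, and each is built from chains that wind around each other in a helix. Fibrillar collagens form the tensile fibrils of the interstitium, type IV chains form the sheet of the basement membrane that surrounds each adipocyte and vessel, and type VI chains form beaded filaments between them. In fat, type VI collagen is abundant around adipocytes and its Col6a3 chain is the source of the cleaved peptide endotrophin. The 44 chains comprised 11 fibrillar chains, 6 of the basement membrane, 6 of type VI and 21 others, and 8, 6, 5 and 12 of these were tested.

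The libraries held 20101240 to 21337312 counts assigned to genes. The adipocyte genes Adipoq (3067 to 5461 CPM, counts scaled to library size) and Plin1 (1404 to 1879 CPM) were high in all 12 libraries. Tgfb1 stood at 45.6 to 61.8 CPM in the control libraries and 63.6 to 82.2 CPM in the high-fat libraries. These values do not check the genotype labels because the transgene's promoter is cardiac. Summed epithelial markers were high in wild-type control replicate 1 (95.6 CPM) and transgenic control replicate 2 (397 CPM), with 12.7 to 43.0 CPM elsewhere. Muscle markers were high in wild-type high-fat replicate 3 (665 CPM) and transgenic control replicate 3 (913 CPM), with at most 116 CPM elsewhere. Liver markers reached 323 CPM in replicate 2 of the wild-type high-fat group, with no more than 60.4 CPM elsewhere. In bulk tissue, fewer cells of a type and less RNA per cell cannot be told apart.

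Collagen transcripts made up 0.513% to 0.701% of all gene counts in the 6 control libraries and 0.941% to 1.23% in the 6 high-fat libraries, with no overlap. The collagen sum was 6203 ± 775 CPM (SD, n = 3) in wild-type control fat and 10030 ± 1291 CPM in wild-type high-fat fat. In transgenic fat it was 5941 ± 838 CPM on the control diet and 11013 ± 845 CPM on the high-fat diet. The high-fat mean was thus 1.62 times the control mean in wild type and 1.85 times in transgenic mice. Per kilobase of the principal transcript, the chains with the highest mean level were Col6a2 (239 CPM per kb), Col3a1 (227), Col6a1 (209), Col4a1 (162), Col4a2 (139), Col15a1 (122), Col1a1 (104) and Col1a2 (94.4). The order of the type VI chains depended on the length used, since Col6a2 ranked 1 by its principal transcript and 5 by the union of its exons.

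Type VI had the largest ratio of summed levels among the 4 classes in both genotypes. Its sum was 1259 ± 212 CPM in wild-type control and 2754 ± 494 CPM in wild-type high-fat libraries, a ratio of 2.19. In transgenic libraries it was 1099 ± 239 and 3049 ± 613 CPM, a ratio of 2.77. The ratios in wild type and transgenic were 1.60 and 1.66 for basement membrane chains, 1.39 and 1.54 for fibrillar chains, and 1.49 and 1.96 for the others. Type VI chains accounted for 20.2% and 18.5% of collagen CPM on the control diet (wild type and transgenic) and for 27.4% and 27.5% on the high-fat diet, while the fibrillar share went from 39.4% and 42.2% to 33.9% and 35.3%. These sums are dominated by the few abundant chains of each class and carry no test.

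**Figure D1:**
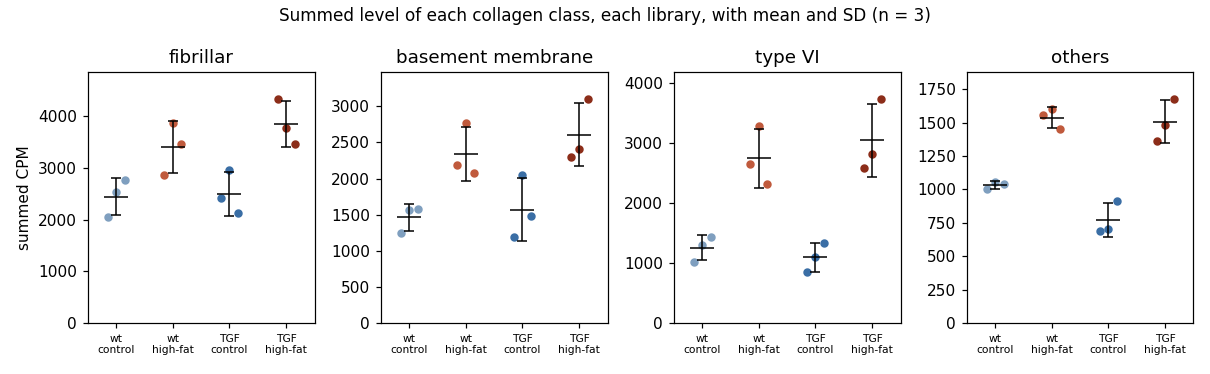
Summed CPM (y axis) of fibrillar, basement membrane, type VI and other collagen chains in each library (points) of the 4 groups (x axis), with the group mean and SD (n = 3). In type VI the 6 high-fat libraries lie between 2321 and 3744 CPM and the 6 control libraries between 856 and 1442 CPM.

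The genes whose products share a trimer often lie side by side in the genome, so the promoters of the 3 pairs discussed most are shown first. Each is 250 bases before and 50 bases after a gene start, 5′ to 3′ on the gene's strand, from RefSeq on GRCm38.p6, and 35 of the 44 chains had an entry. Capitals mark the motif CCAAT and the GC box, GGGCGG, each searched on both strands, where neighbouring matches may overlap. Col6a1 (chr10:76725995-76726294, minus strand) and Col6a2 point the same way on chromosome 10 with 85161 bases between the genes. Col6a2 has 2 entries, chr10:76623355-76623654 and chr10:76623581-76623880, both on the minus strand.
Col6a1: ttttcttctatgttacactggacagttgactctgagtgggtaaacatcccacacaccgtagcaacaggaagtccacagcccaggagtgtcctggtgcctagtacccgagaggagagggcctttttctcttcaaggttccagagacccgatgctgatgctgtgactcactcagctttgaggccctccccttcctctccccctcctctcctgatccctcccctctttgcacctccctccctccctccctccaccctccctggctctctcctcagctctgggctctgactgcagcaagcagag
Col6a2: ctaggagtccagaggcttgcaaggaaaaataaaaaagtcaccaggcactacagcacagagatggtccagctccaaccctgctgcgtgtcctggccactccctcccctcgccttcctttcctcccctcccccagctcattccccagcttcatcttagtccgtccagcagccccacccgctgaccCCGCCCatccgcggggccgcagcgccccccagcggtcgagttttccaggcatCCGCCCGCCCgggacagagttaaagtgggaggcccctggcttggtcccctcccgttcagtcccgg
Col6a2: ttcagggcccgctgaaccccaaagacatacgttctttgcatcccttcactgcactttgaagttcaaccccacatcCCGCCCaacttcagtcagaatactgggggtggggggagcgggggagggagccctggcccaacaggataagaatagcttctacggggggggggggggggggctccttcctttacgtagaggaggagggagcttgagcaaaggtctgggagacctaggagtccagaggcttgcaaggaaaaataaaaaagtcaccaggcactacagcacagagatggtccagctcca
Col4a1 (chr8:11312777-11313076, minus strand) and Col4a2 (chr8:11312555-11312854, plus strand) diverge from starts 21 bases apart, and 78 bases belong to both windows.
Col4a1: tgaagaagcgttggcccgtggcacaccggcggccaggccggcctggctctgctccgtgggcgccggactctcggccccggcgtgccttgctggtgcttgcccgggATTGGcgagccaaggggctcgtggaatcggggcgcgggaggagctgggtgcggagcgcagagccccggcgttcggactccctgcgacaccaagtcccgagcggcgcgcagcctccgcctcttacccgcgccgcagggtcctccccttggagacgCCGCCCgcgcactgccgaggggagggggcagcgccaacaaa
Col4a2: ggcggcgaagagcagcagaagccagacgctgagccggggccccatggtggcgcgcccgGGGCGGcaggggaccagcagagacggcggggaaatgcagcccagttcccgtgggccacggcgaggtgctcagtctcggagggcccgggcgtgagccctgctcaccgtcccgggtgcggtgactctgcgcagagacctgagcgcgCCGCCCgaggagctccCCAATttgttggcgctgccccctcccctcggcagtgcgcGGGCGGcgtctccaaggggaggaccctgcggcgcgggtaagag
Col4a6 (chrX:141474027-141474326, minus strand) and Col4a5 (chrX:141475169-141475468, plus strand) also diverge, with 1274 bases between the genes.
Col4a5: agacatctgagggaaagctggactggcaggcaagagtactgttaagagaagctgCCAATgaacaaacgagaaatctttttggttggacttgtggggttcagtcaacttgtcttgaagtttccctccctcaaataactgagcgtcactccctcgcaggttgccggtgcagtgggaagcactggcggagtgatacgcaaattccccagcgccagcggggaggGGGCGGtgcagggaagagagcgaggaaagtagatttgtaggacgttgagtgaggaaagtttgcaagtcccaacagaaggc
Col4a6: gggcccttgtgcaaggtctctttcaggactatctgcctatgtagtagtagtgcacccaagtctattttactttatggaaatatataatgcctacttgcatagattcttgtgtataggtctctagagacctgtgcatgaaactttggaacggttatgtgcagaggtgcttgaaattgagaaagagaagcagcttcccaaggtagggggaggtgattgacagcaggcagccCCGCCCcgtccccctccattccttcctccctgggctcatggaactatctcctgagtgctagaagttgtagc
A GC box was present in 23 of the 38 collagen entries (60.5%), against 35.7% of all 32851 promoter entries. CCAAT was present in 13 of the 38 (34.2%, against 37.4%). The TATA box, searched as TATAAA on both strands, was found in 5 of the 38 (13.2%, against 13.6%), and the short Smad box, searched as CAGAC on both strands, in 20 of the 38 (52.6%, against 49.6%). Such matches describe the letters only.

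Averaged over the 2 genotypes (6 libraries against 6), 12 of the 31 tested chains were higher on the high-fat diet and 4 were lower in edgeR's quasi-likelihood test, called at a Benjamini-Hochberg adjusted p below 0.05 over all 16550 genes. Of all genes tested, 9.43% were called higher and 7.98% lower. The median log2 fold change was 0.38 over the tested chains and -0.02 over all genes, and 19 chains had an unadjusted p below 0.05 (32.4% of all genes). The chains called higher were 4 fibrillar (Col1a1, Col5a1, Col5a2, Col5a3), 2 of the basement membrane (Col4a1, Col4a2), 2 of type VI (Col6a1, Col6a2) and 4 others (Col8a1, Col12a1, Col15a1, Col18a1). The chains called lower were Col4a5, Col4a6, Col6a5 and Col8a2.

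In transgenic mice alone the diet comparison called 10 chains higher and 3 lower, where 8.73% of all genes were called, 5.39% higher and 3.34% lower. In wild-type mice alone it called 3 chains higher (Col6a2, Col6a1 and Col15a1) and 0 lower, where 0.683% of all genes were higher and 0.453% lower. At an unadjusted p below 0.05 the wild-type comparison had 15 of the 31 chains (18.1% of all genes) and the transgenic one 17 (25.8% of all genes). The wild-type count rested on single libraries and on the tool. It was 0 when replicate 1 or 2 of the control group or replicate 1 or 2 of the high-fat group was left out, and 1 when replicate 3 of the high-fat group was. DESeq2 called 10 chains and 5.24% of all genes, and limma-voom 7 chains and 4.22%. Without the 2 epithelial-high libraries the wild-type log2 fold changes of Col6a2, Col6a1 and Col15a1 were 1.26 (adjusted p = 0.0841), 0.94 (adjusted p = 0.123) and 0.89 (adjusted p = 0.118). Without the 2 muscle-high libraries they were 1.51 (adjusted p = 0.0443), 1.17 (adjusted p = 0.0537) and 0.91 (adjusted p = 0.0537). In the authors' deposited table for wild type, 11 chains were higher and 2 lower (Col4a6 and Col8a2), with 5.98% of all genes called. The transgenic count was 6 without control replicate 1 and 8 without high-fat replicate 3. There Col6a2, Col6a1, Col15a1, Col5a3 and Col18a1 passed in all 21 alternatives, and Col12a1, Col1a1 and Col5a2 in all but the one without control replicate 1. The call was lost in 4 of the 21 for Col4a2 (adjusted p up to 0.104) and for Col5a1 (up to 0.0905), and, among the lower chains, in 15 for Col4a6, 7 for Col8a2 and 6 for Col4a5. Col5a1 was among those lost without the 2 epithelial-high libraries (0.78, adjusted p = 0.0621), and Col4a2 (0.88, adjusted p = 0.0613) and Col8a2 (-0.95, adjusted p = 0.0844) among those lost without the 2 muscle-high ones. In the authors' deposited table for transgenic mice, 12 chains were higher and 3 lower, with 9.88% of all genes called.

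**Figure D2:**
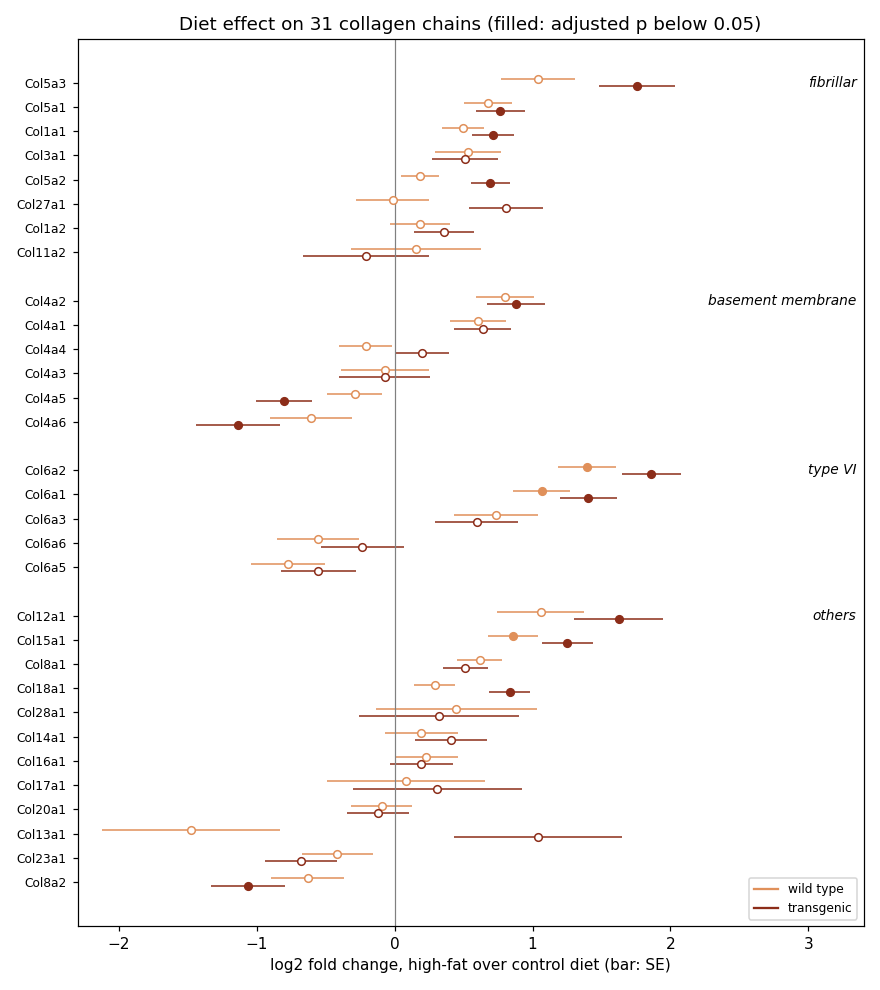
Log2 fold change of high-fat over control diet (x axis, bars are the SE) for the 31 tested chains (y axis, by class) in wild-type and transgenic mice, with filled points for adjusted p below 0.05 in edgeR's quasi-likelihood test. Col6a2 lies at 1.39 in wild type and 1.86 in transgenic mice, and Col4a6, Col4a5 and Col8a2 lie left of 0 in both.

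Of the type VI chains, Col6a1 and Col6a2, which combine with a longer chain such as Col6a3, rose in both genotypes. Col6a2 stood at 400, 528 and 561 CPM in the wild-type control libraries, 1321, 1515 and 1076 CPM in wild-type high-fat, 329, 459 and 491 CPM in transgenic control and 1301, 1393 and 1952 CPM in transgenic high-fat libraries. All 6 high-fat libraries lay above all 6 control libraries. The log2 fold change was 1.39 (SE 0.21, adjusted p = 0.0238) in wild type, 1.86 (SE 0.21, adjusted p = 0.00125) in transgenic mice and 1.63 (SE 0.15, adjusted p = 0.000147) on average. Col6a1 stood at 460, 583 and 660 CPM in wild-type control, 1133, 1422 and 1012 CPM in wild-type high-fat, 350, 468 and 551 CPM in transgenic control and 1051, 1107 and 1463 CPM in transgenic high-fat libraries. The diets again did not overlap, and the log2 fold change was 1.07 (SE 0.21, adjusted p = 0.0348) in wild type, 1.40 (SE 0.21, adjusted p = 0.00285) in transgenic mice and 1.23 (SE 0.15, adjusted p = 0.000479) on average.

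The longer partner Col6a3 ranged from 104 to 249.5 CPM on the control diet and from 157 to 332 CPM on the high-fat diet. These ranges overlapped, and its averaged log2 fold change of 0.66 (SE 0.22) did not pass (adjusted p = 0.0516). Col6a5 and Col6a6, alternative long chains that lie next to each other on chromosome 9, had values of the opposite sign. Col6a5 fell on average by 0.66 on the log2 scale (SE 0.19, adjusted p = 0.0333), from 48.1 ± 7.1 to 28.2 ± 12.3 CPM in wild type and from 32.5 ± 1.8 to 22.2 ± 6.0 CPM in transgenic libraries (SD, n = 3). This call was lost in 10 of 20 alternatives, with adjusted p up to 0.0939, among them those without replicate 1 or 3 of wild-type control, 1 or 2 of wild-type high-fat, 1 or 2 of transgenic control, or 1 or 3 of transgenic high-fat libraries. Without the 2 epithelial-high libraries the log2 fold change was -0.64 (adjusted p = 0.0939). Col6a6 (5.03 to 14.7 CPM) had a log2 fold change of -0.40 (SE 0.21, adjusted p = 0.217). Col6a4 was below the count filter, with at most 1.29 CPM.

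**Figure D3:**
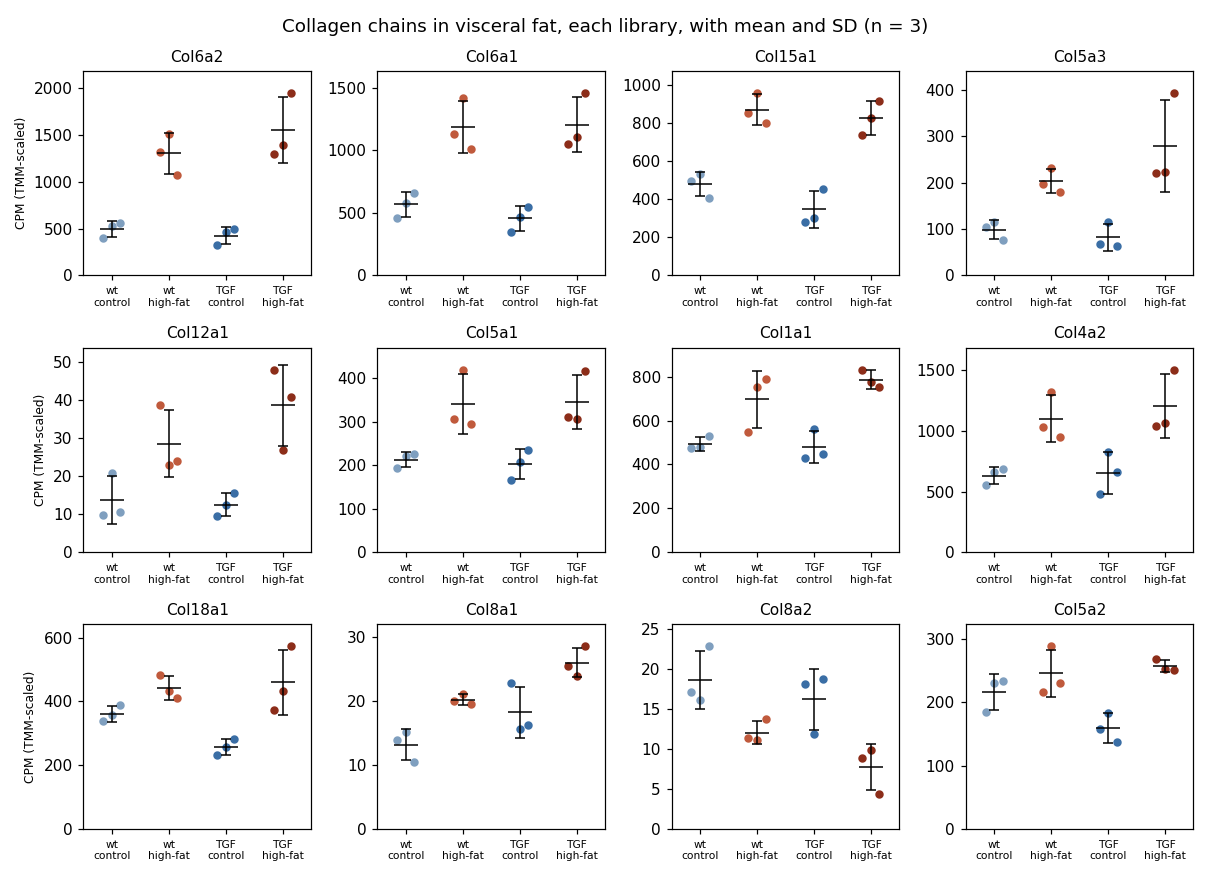
CPM scaled by TMM factors (y axis) of the 12 chains with the smallest p in the averaged diet comparison, in each library (points) of the 4 groups (x axis), with the group mean and SD (n = 3). The diets do not overlap for Col6a2, Col6a1, Col15a1, Col5a3, Col12a1, Col5a1 and Col4a2, and Col8a2 is the only one of the 12 with lower means on the high-fat diet.

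Among fibrillar chains Col5a3 and Col5a1 had the largest averaged fold changes. Type V collagen lies within type I fibrils and regulates their diameter. Col5a3 stood at 104, 115 and 76.1 CPM in wild-type control, 198, 230.5 and 180 CPM in wild-type high-fat, 67.6, 116 and 63.4 CPM in transgenic control and 220.5, 222 and 394 CPM in transgenic high-fat libraries. The diets did not overlap, and transgenic high-fat replicate 3 was the highest library. The averaged log2 fold change was 1.40 (SE 0.19, adjusted p = 0.000905). In transgenic mice it was 1.76 (SE 0.28, adjusted p = 0.00375), and in wild type 1.04 (SE 0.27), which did not pass (adjusted p = 0.0801).

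Col5a1 stood at 192, 220 and 226 CPM in wild-type control, 305, 419 and 295 CPM in wild-type high-fat, 166, 206 and 236 CPM in transgenic control and 310, 306 and 417 CPM in transgenic high-fat libraries. Its diets did not overlap either, and the averaged log2 fold change was 0.72 (SE 0.12, adjusted p = 0.00302). Col5a2 stood at 184, 230 and 234 CPM in wild-type control, 217, 288 and 231 CPM in wild-type high-fat, 157, 184 and 138 CPM in transgenic control and 269, 253 and 251 CPM in transgenic high-fat libraries. The diets overlapped in wild type and not in transgenic mice. Its log2 fold change was 0.18 (SE 0.14, adjusted p = 0.528) in wild type, 0.69 (SE 0.14, adjusted p = 0.0133) in transgenic mice and 0.44 (SE 0.10, adjusted p = 0.0118) on average.

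Of the type I and type III chains, which make up the bulk of interstitial fibrils, Col1a1 alone passed in the edgeR fit. Col1a1 stood at 474, 478 and 531 CPM in wild-type control, 546, 754 and 789 CPM in wild-type high-fat, 428, 563.5 and 448 CPM in transgenic control and 832, 776 and 752 CPM in transgenic high-fat libraries. Within each genotype the diets did not overlap, and the averaged log2 fold change was 0.60 (SE 0.11, adjusted p = 0.0035). Its partner Col1a2 ranged from 341 to 654 CPM on the control diet and from 441 to 654 CPM on the high-fat diet, with an averaged log2 fold change of 0.27 (SE 0.15, adjusted p = 0.248). Col3a1 ranged from 751 to 1409 CPM and from 1131 to 2040 CPM. Its averaged log2 fold change of 0.52 (SE 0.17) narrowly missed the threshold (adjusted p = 0.0521). In the authors' deposited DESeq2 tables Col3a1 was called higher in wild type (0.54, SE 0.18, adjusted p = 0.0410). It was not called in transgenic mice (0.52, SE 0.22, adjusted p = 0.134). Col27a1 (3.61 to 9.31 CPM) and Col11a2 (0.316 to 1.36 CPM) did not pass in any edgeR comparison. The authors' deposited DESeq2 table for transgenic mice called Col27a1 higher on the high-fat diet (0.81, SE 0.27, adjusted p = 0.0352). Col2a1, Col11a1 and Col24a1 were below the count filter.

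The basement membrane chains split by gene pair. Col4a1 and Col4a2, the chains of nearly all basement membranes, rose. Col4a2 stood at 552, 660 and 685 CPM in wild-type control, 1030, 1319 and 954 CPM in wild-type high-fat, 482, 825 and 659 CPM in transgenic control and 1042, 1067 and 1507 CPM in transgenic high-fat libraries. All high-fat libraries lay above all control libraries, and the averaged log2 fold change was 0.84 (SE 0.15, adjusted p = 0.00353). Col4a1 ranged from 663 to 1193 CPM on the control diet and from 1090 to 1585 CPM on the high-fat diet, which overlapped through transgenic control replicate 2. Its averaged log2 fold change was 0.62 (SE 0.15, adjusted p = 0.0132). Their exons overlap other genes on the opposite strand over 0.295% (Col4a1) and 0.982% (Col4a2) of their length, and the strand setting of the counting is not given in the sources used here.

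Col4a5 and Col4a6, a pair of chains of more restricted basement membranes, were both called lower in the averaged comparison. Col4a6 ranged from 8.43 to 12.6 CPM on the control diet and from 2.04 to 7.93 CPM on the high-fat diet, with no overlap and the lowest value in transgenic high-fat replicate 3. Its averaged log2 fold change was -0.87 (SE 0.21, adjusted p = 0.0164). Col4a5 ranged from 10.1 to 14.8 CPM and from 5.38 to 13.8 CPM, with an averaged log2 fold change of -0.54 (SE 0.14, adjusted p = 0.0222). Without the 2 epithelial-high libraries the averaged log2 fold changes were -0.85 for Col4a6 (adjusted p = 0.0562) and -0.48 for Col4a5 (adjusted p = 0.0879), so the folds were about as large while neither passed. Col4a5 was also lost without wild-type control replicate 1, wild-type high-fat replicate 2 or transgenic control replicate 1. In wild type alone neither passed in the edgeR fit, with log2 fold changes of -0.61 for Col4a6 (SE 0.30, adjusted p = 0.307) and -0.29 for Col4a5 (SE 0.20, adjusted p = 0.478). The authors' deposited DESeq2 table for wild type called Col4a6 lower (-0.60, SE 0.20, adjusted p = 0.0490) and did not call Col4a5 (-0.29, SE 0.19, adjusted p = 0.479). In transgenic mice alone Col4a6 fell by 1.14 (SE 0.31, adjusted p = 0.0397) and Col4a5 by 0.80 (SE 0.20, adjusted p = 0.0324) on the log2 scale. Without the 2 epithelial-high libraries these were -1.14 (adjusted p = 0.0973) and -0.70 (adjusted p = 0.116), and without the 2 muscle-high libraries Col4a6 was at -1.01 (adjusted p = 0.107). The third divergent pair, Col4a3 (0.94 to 2.32 CPM) and Col4a4 (3.02 to 6.06 CPM) on chromosome 1, had averaged log2 fold changes of -0.07 (SE 0.23) and -0.01 (SE 0.14) that did not pass.

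Multiplexins are basement membrane zone collagens, and the C-terminal fragment of Col18a1 is endostatin. Col15a1 stood at 499, 534 and 408 CPM in wild-type control, 852, 961 and 804 CPM in wild-type high-fat, 280, 303 and 457 CPM in transgenic control and 736, 830 and 915 CPM in transgenic high-fat libraries. No control library reached a high-fat one. The log2 fold change was 0.86 (SE 0.18, adjusted p = 0.0443) in wild type, 1.25 (SE 0.18, adjusted p = 0.00285) in transgenic mice and 1.06 (SE 0.13, adjusted p = 0.000541) on average. Col18a1 stood at 338, 358 and 388 CPM in wild-type control, 484, 434 and 410 CPM in wild-type high-fat, 233, 258 and 282 CPM in transgenic control and 374, 433 and 572 CPM in transgenic high-fat libraries. The transgenic control libraries were the lowest 3 of the 12. Its log2 fold change was 0.29 (SE 0.15, adjusted p = 0.326) in wild type, 0.83 (SE 0.15, adjusted p = 0.00745) in transgenic mice and 0.56 (SE 0.11, adjusted p = 0.00465) on average.

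Col12a1 belongs to the fibril-associated collagens, which coat fibrils and link them to other matrix. It stood at 9.68, 20.9 and 10.5 CPM in wild-type control, 38.6, 22.8 and 24.0 CPM in wild-type high-fat, 9.57, 12.4 and 15.5 CPM in transgenic control and 48.0, 27.0 and 40.8 CPM in transgenic high-fat libraries. The diets did not overlap, although wild-type control replicate 2 came close to the lowest high-fat library, and the averaged log2 fold change was 1.34 (SE 0.23, adjusted p = 0.0027). The other fibril-associated chains that were tested, Col14a1 (61.1 to 141 CPM), Col16a1 (26.0 to 50.4 CPM) and Col20a1 (3.16 to 5.43 CPM), did not pass, with averaged log2 fold changes of 0.30 (SE 0.19), 0.21 (SE 0.16) and -0.11 (SE 0.16).

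The 2 short-chain network collagens that were tested, partners in vascular and corneal basement membranes, went in opposite directions. Col8a1 stood at 13.8, 15.2 and 10.5 CPM in wild-type control, 20.0, 21.1 and 19.5 CPM in wild-type high-fat, 22.8, 15.7 and 16.2 CPM in transgenic control and 25.5, 23.9 and 28.5 CPM in transgenic high-fat libraries. Within each genotype the diets did not overlap, and the averaged log2 fold change was 0.56 (SE 0.12, adjusted p = 0.00718). Col8a2 stood at 17.0, 16 and 22.8 CPM in wild-type control, 11.3, 11.1 and 13.7 CPM in wild-type high-fat, 18.0, 11.8 and 18.7 CPM in transgenic control and 8.91, 9.87 and 4.43 CPM in transgenic high-fat libraries. Within each genotype every high-fat library was below every control library. Its averaged log2 fold change was -0.85 (SE 0.19, adjusted p = 0.0103).

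The remaining tested chains did not pass in any comparison. The transmembrane Col23a1 ranged from 2.14 to 5.83 CPM, with an averaged log2 fold change of -0.55 (SE 0.18, adjusted p = 0.0576). Col13a1 (0.0464 to 1.29 CPM), Col17a1 (0.248 to 1.89 CPM) and Col28a1 (0.152 to 1.21 CPM) were near the count filter. The 13 chains below the filter were Col2a1, Col6a4, Col7a1, Col9a1, Col9a2, Col9a3, Col10a1, Col11a1, Col19a1, Col22a1, Col24a1, Col25a1 and Col26a1, so nothing is said here of their response to diet or genotype. Over all 12 libraries, the diets did not overlap for 7 chains that were higher (3.98% of all genes) and 1 that was lower (2.78% of all genes). Within wild type they did not overlap for 13 chains that were higher (12.5% of all genes) and 5 that were lower (12.4%), and within transgenic mice for 14 (14.4%) and 5 (13.4%).

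The ratio of read counts of partner chains within a library does not depend on library scaling. For each of 8 pairs the mean log2 ratio was compared between diets within genotypes by an exact two-sided permutation test of 400 arrangements, whose smallest p is 0.005, with Benjamini-Hochberg adjustment over the 8 ratios. Col6a1/Col6a2 was 1.14 ± 0.04 (SD, n = 3) in wild-type control, 0.913 ± 0.047 in wild-type high-fat, 1.07 ± 0.05 in transgenic control and 0.784 ± 0.031 in transgenic high-fat libraries. The high-fat ratio was 0.765 times the control ratio (exact p = 0.005, adjusted p = 0.0133), and the diets did not overlap (1.02 to 1.18 against 0.749 to 0.941). Col6a2/Col6a3 ran from 1.97 to 3.83 on the control diet and from 4.56 to 8.41 on the high-fat diet, a 1.96-fold difference (exact p = 0.005, adjusted p = 0.0133). Col6a1/Col6a3 was 1.5-fold higher (exact p = 0.015, adjusted p = 0.024). Within type VI, read counts were thus spread over the 3 chains differently on the 2 diets.

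Col8a1/Col8a2 ran from 0.460 to 1.33 on the control diet and from 1.42 to 6.43 on the high-fat diet, a 2.73-fold difference (exact p = 0.005, adjusted p = 0.0133). The highest ratio, 6.43, was that of transgenic high-fat replicate 3. Col4a1/Col4a2, the pair with the shared promoter window, was 0.869 times as high on the high-fat diet (exact p = 0.01, adjusted p = 0.02), with overlapping ranges. Col1a1/Col1a2 was 1.24-fold higher (exact p = 0.035, adjusted p = 0.0467). For Col5a1/Col5a2 (1.21-fold, exact p = 0.12, adjusted p = 0.137) and Col1a1/Col3a1 (1.05-fold, exact p = 0.625, adjusted p = 0.625) the difference did not pass.

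**Figure D4:**
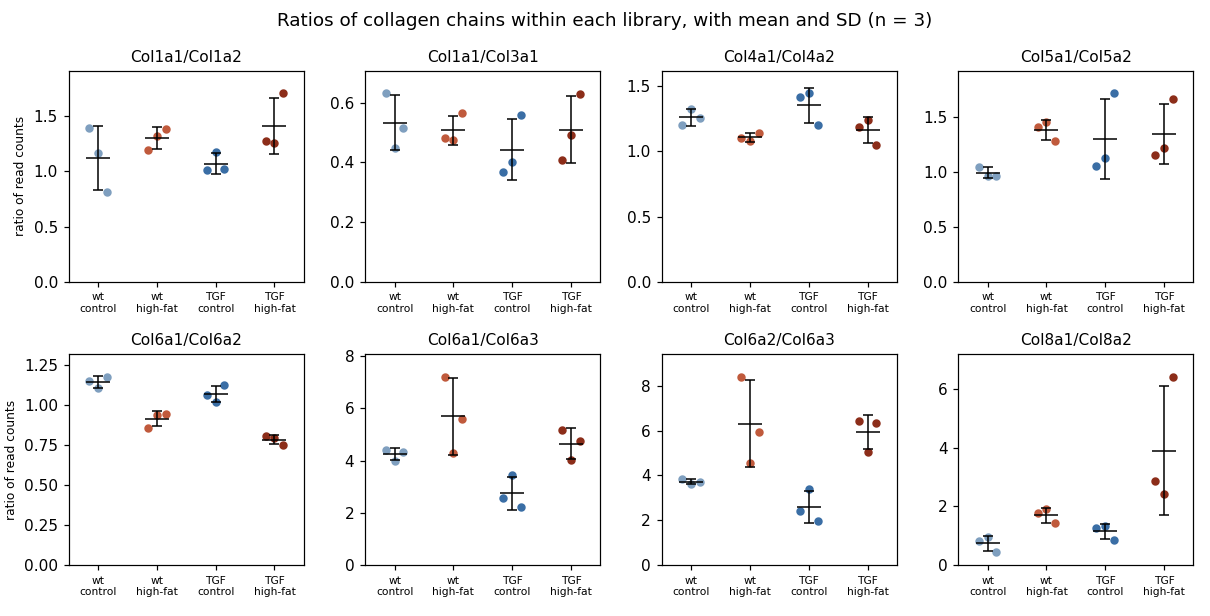
Ratio of read counts of 2 collagen chains (y axis) within each library (points) of the 4 groups (x axis) for 8 pairs, with the group mean and SD (n = 3). For Col6a1/Col6a2 the 6 high-fat libraries lie between 0.749 and 0.941, below all control libraries, and for Col6a2/Col6a3 and Col8a1/Col8a2 all high-fat libraries lie above all control libraries.

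The cardiac transgene was not matched by a called difference in any chain in these fits. On the control diet 0 of 31 chains passed edgeR's quasi-likelihood test, where 0.0363% of all genes were called (0.0121% higher, 0.0242% lower), and 5 chains had an unadjusted p below 0.05 (11% of all genes). On the high-fat diet 0 passed (0% of all genes) and 5 had an unadjusted p below 0.05 (6.73% of all genes). Averaged over diets 0 passed (0% of all genes), with 5 at an unadjusted p below 0.05 (12.3% of all genes). DESeq2 and limma-voom also called 0 chains in each of these comparisons. In the authors' deposited table for the control diet Col18a1 alone was lower in transgenic mice (log2 fold change -0.48, SE 0.13, adjusted p = 0.0351, with 0.942% of all genes called), and their table for the high-fat diet called 0 chains (0.554% of all genes).

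On the control diet Col18a1 was 361.5 ± 25.1 CPM in wild-type and 257.7 ± 24.3 CPM in transgenic libraries. Its log2 fold change in the 12-library fit was -0.49 (SE 0.15, adjusted p = 0.257). Col4a4 had the smallest p there, with -0.67 (SE 0.19, adjusted p = 0.231). Col5a2 was at -0.44 (SE 0.14, adjusted p = 0.283) and Col15a1 at -0.47 (SE 0.18, adjusted p = 0.363). On the high-fat diet Col4a5 was at -0.69 (SE 0.20, adjusted p = 0.712), Col8a2 at -0.63 (SE 0.27, adjusted p = 0.714) and Col4a6 at -0.71 (SE 0.31, adjusted p = 0.714). Col8a1 had the smallest p averaged over diets, with 0.42 (SE 0.12, adjusted p = 0.234). Such values missed the threshold, which does not show that the genotypes were alike.

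Among the within-library ratios, Col6a1/Col6a2 was 0.896 times as high in transgenic as in wild-type libraries (exact permutation p = 0.01, adjusted p = 0.04) and Col8a1/Col8a2 1.83-fold higher (exact permutation p = 0.01, adjusted p = 0.04). Both passed with all 12 libraries, but no ratio passed when any of 9 of the 12 was left out: wild-type control 1 or 3, wild-type high-fat 1 or 3, transgenic control 1 or 2, or any transgenic high-fat replicate.

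The test of whether the diet effect differed between genotypes called 0 of 31 chains (0% of all genes) with edgeR, DESeq2 and limma-voom alike, and 3 chains had an unadjusted p below 0.05 (5.61% of all genes). They were Col13a1, a transmembrane chain with 1 to 26 counts a library, Col18a1 (difference of log2 fold changes 0.54, SE 0.21, adjusted p = 0.82) and Col5a2 (0.51, SE 0.20, adjusted p = 0.823). For Col6a2 the difference was 0.47 (SE 0.29, adjusted p = 0.885). The larger count of chains called in transgenic than in wild-type mice is therefore not a tested difference between the genotypes.

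Genes that make, process, bind or receive collagen were read beside the chains in the averaged diet comparison. Of 17 tested genes of chain folding and modification, 4 rose and 1 fell. The prolyl 3-hydroxylase P3h1 (0.50, SE 0.08, adjusted p = 0.0025) and the collagen chaperone Serpinh1 (0.50, SE 0.10, adjusted p = 0.00662) rose, and P3h4 (-0.59, SE 0.13, adjusted p = 0.0113) fell. Of 12 genes of procollagen processing and crosslinking, 2 rose, the lysyl oxidase-like Loxl4 (0.75, SE 0.20, adjusted p = 0.0251) and the C-proteinase Bmp1 (0.28, SE 0.08, adjusted p = 0.0297), and 0 fell. Of 12 receptors, 3 rose and 1 fell. They included the integrin subunit Itgb1 (0.35, SE 0.07, adjusted p = 0.00613), the immune collagen receptor Lair1 (0.80, SE 0.19, adjusted p = 0.0138) and the collagen-binding receptor Antxr1 (-0.66, SE 0.14, adjusted p = 0.00732).

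Small leucine-rich proteoglycans, which bind fibrils, went both ways, with 3 of 9 tested genes higher and 4 lower. Ogn (-0.95, SE 0.12, adjusted p = 0.000797) and Omd (-1.15, SE 0.22, adjusted p = 0.00466) fell, and Aspn (0.71, SE 0.12, adjusted p = 0.003) rose. Of 14 basement membrane partners 3 rose and 2 fell. Perlecan, Hspg2 (0.995, SE 0.17, adjusted p = 0.00263), and the nidogens Nid2 (0.49, SE 0.10, adjusted p = 0.00568) and Nid1 (0.57, SE 0.13, adjusted p = 0.0112) rose alongside Col4a1 and Col4a2. Of 14 other interstitial matrix genes 2 rose and 2 fell. The collagen-binding Sparc (1.02, SE 0.14, adjusted p = 0.000899) and tenascin C, Tnc (1.21, SE 0.28, adjusted p = 0.0123), rose and thrombospondin 2, Thbs2 (-0.95, SE 0.21, adjusted p = 0.011), fell. The counts are to be read against the 9.43% and 7.98% of all genes called higher and lower in this comparison.

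Markers of cell types that fat tissue can hold were read in the same comparison, against the same 9.43% and 7.98% of all genes. Fibroblast and progenitor markers summed to 946 to 1246 CPM on the control diet and 845 to 997 CPM on the high-fat diet, and 1 of 10 rose and 1 fell in the averaged comparison. Endothelial markers summed to 669 to 1026 and 832 to 1094 CPM (3 of 8 rose), and macrophage markers to 515 to 855 and 694 to 1009 CPM (3 of 8 rose). Mesothelial markers, of the layer that covers visceral organs and fat, summed to 574 to 934 CPM on the control diet and 124 to 479 CPM on the high-fat diet without overlap, and 6 of 8 fell. Epithelial markers summed to 22.9 to 397 CPM and 12.7 to 29.3 CPM, and 5 of 8 fell. These ranges overlapped, and the 2 highest control values were those of the epithelial-high libraries. Of adipocyte markers 1 of 8 rose, of Schwann cell markers 1 of 8 rose and 1 fell, and of liver markers 3 of 5 rose. The liver sum was 24.3 to 60.4 CPM on the control diet and 323 CPM in wild-type high-fat replicate 2. In the other high-fat libraries it was 36.0 to 47.6 CPM, within the control range. None of the 7 myofibroblast and smooth muscle, 9 skeletal and cardiac muscle and 3 cartilage markers tested passed. The mesothelial sum was thus lower on the diet on which Col4a5, Col4a6, Col6a5 and Col8a2 were lower. Transgenic high-fat replicate 3 had the lowest mesothelial sum (124 CPM) and the lowest CPM of each of these chains. The part of mesothelial cells in those results was not tested. Without the 2 epithelial-high libraries, 12 chains were called higher and 1, Col8a2, lower (11.1% of all genes called). Without the 2 muscle-high libraries, 13 were called higher and 4 lower (15.2% of all genes called).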

How the data were processed

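Total RNA of visceral white fat was extracted with a Zymo kit and sequenced on DNBseq, per the labels' protocols. The authors deposited raw read counts per gene symbol and, per the file headers, DESeq2 tables with a mean normalized signal, a log2 fold change with its SE, a Wald score and a p-value, raw and adjusted. HISAT2 2.2.0, HTSeq 2.0 and DESeq2 1.32.0 with mm10 were used, per the submitters' processing notes. Annotation and strand setting were not given in the sources used here. Reads not assigned to a gene (5 summary entries, 16.8% to 21.0% of reads) stayed out of library sizes.

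Counts were tested with edgeR 4.0.16 (R 4.3.3): filterByExpr with a minimum count of 10 and total of 15, TMM scaling, 1 group-means model of 12 libraries (8 residual degrees of freedom), quasi-likelihood F test, and Benjamini-Hochberg adjustment over 16550 genes. The 7 comparisons share libraries: the averaged effects and the interaction use those of the separate ones. Each separate diet comparison also shares a group with each separate transgene comparison. SE is the log2 fold change divided by the root of F. CPM are TMM-scaled, and lengths for CPM per kb are of the longest principal transcript in GENCODE M21. No 2 libraries agreed within sampling noise (smallest chi-square per degree of freedom 20.7). The code was tested on simulated data. Alternatives were DESeq2 1.42.0, limma-voom (limma 3.58.1), other scalings, no filter, the 2 groups alone, the replicate number as a term, and libraries left out.

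Named were every chain called in any comparison (the 12 with the smallest p in the averaged diet comparison with all values), the 2 most abundant of each class, the partner pairs, and up to 3 genes per matrix list by smallest p. Some single-gene results are not reported here. The chains, lists and pairs were chosen with earlier results of these data known.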

Additional observations from a re-analysis of the deposited data

How the results depend on the processing

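In the diet comparison of wild-type mice, where 3 chains were called, DESeq2 gave 10 (5.24% of all genes), limma-voom 7 (4.22%) and no filter on low counts 9 (2.11%). Leaving out 1 library gave 0 to 3, leaving out the 2 epithelial-high libraries 0 (0.19% of all genes) and the 2 muscle-high libraries 1 (0.136%). In transgenic mice, where 13 were called, leaving out 1 library gave 6 to 14. Averaged over genotypes, where 16 were called, the 12 chains that rose and Col8a2 kept their calls in all 20 alternatives, and leaving out 1 library gave 14 to 17. There DESeq2 called 14 chains higher and 5 lower (21.0% of all genes). Limma-voom and no filter on low counts each called 14 higher and 4 lower (19.4% and 8.97% of all genes). The transgene and interaction comparisons stayed at 0 chains in all alternatives. Of the 8 ratios, 6 differed with diet and 5 to 6 with 1 library left out, with no share of other gene pairs computed. For the transgene 2 ratios differed, 0 to 2 with 1 library left out, and 0 without the epithelial-high or without the muscle-high libraries. The 2 epithelial-high libraries are both on the control diet. Without them too few arrangements remain for 2 ratios alone to pass, so that loss says nothing of epithelial content. Of 1030 recomputed values, those of called chains and ratios all kept their direction, 657 with the call and 119 without it. The rest were counts of calls and class sums, which have no direction. Of these, 229 stayed about the same and 25 moved. Other scalings shifted the median of all genes by -0.0966 to 0.0718 (log2).

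Replicate numbers occur in all groups, but same-numbered libraries did not deviate together: 4 of 18 pairs correlated above 0.1 (range -0.132 to 0.241), and 4 of 12 libraries correlated best with their own number. With the replicate block the diet comparison called 2 chains in wild type, 12 in transgenic mice and 16 on average, and 0 in the transgene and interaction comparisons. With the block 0 ratios passed for diet and 0 for the transgene, where 64 arrangements allow few small p-values.

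At this depth the 13 chains below the count filter were too shallow to be compared.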

Other observations

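Of the chains known from cartilage, the type IX chains and Col11a1 had their highest counts in wild-type control replicate 1. It held 22 counts of Col9a1 (0 or 1 in each other library), 17 of Col9a2 (at most 2), 17 of Col9a3 (at most 5) and 19 of Col11a1 (at most 3). Other cartilage chains did not follow: Col2a1 had 1 count there (0 to 2 in the others), Col10a1 0 (at most 3) and Col11a2 13 (7 to 26). Summed cartilage markers were 2.12 to 4.79 CPM over all 12 libraries.

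Col7a1, the anchoring fibril chain of the skin, had 22 counts each in wild-type control replicate 1 and transgenic control replicate 2, the 2 epithelial-high libraries, and 1 to 9 in the others. Col17a1, of the hemidesmosome, had 39 and 17 counts in those libraries and 5 to 24 in the others. These chains were compared between no groups, or passed no comparison, and the values were noticed after the data were seen.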
